A study of Mus musculus with 4 samples.

Results

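The transcripts of p53 and of 8 genes of its pathway were examined in DC2.4 cells after treatment with ginsenoside Rb1. The genes were Trp53, its inhibitors Mdm2 and Mdm4, and the p53 targets Zmat3, Trp53inp1, Bbc3, Phlda3, Sesn1 and Sesn2. They were found by gene name in the deposited count table, where each name matched 1 gene, so that the set holds 9 of 54532 genes. DC2.4 cells are an immortalised dendritic line of the mouse, and Rb1 is here the triterpene saponin of ginseng, not the retinoblastoma gene. Cells received Rb1 at 10 uM (2 libraries) or vehicle (2 libraries), both for 24 h in serum-supplemented medium, and total RNA was sequenced. The labels call the libraries biological replicates and do not say whether they came from separate cultures, so the p-values cover only the spread between libraries, which may be technical.

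The libraries held 18378029 and 17829784 counts with Rb1 and 18641021 and 17908591 counts with vehicle. Of 12 dendritic and myeloid marker genes, 11 could be tested. Higher with Rb1 were 2 of these (18.2%, Ptprc and Zbtb46) and lower were 9 (81.8%), against 35.7% and 36.3% of all genes tested. Flt3 had 2 and 0 counts with Rb1 and 0 and 0 counts with vehicle. Their summed level was 1691 and 1676 CPM (counts scaled to library size) with Rb1, against 2729 and 2709 CPM with vehicle. Of 6 fibroblast markers 2 could be tested, Dcn and Lum, and both were lower with Rb1, while Col3a1 had no count in any library. The summed fibroblast level was 0.60 and 0.567 CPM with Rb1, against 10.7 and 9.75 CPM with vehicle. The summed level of 3 endothelial markers was 0.50 and 0.67 CPM with Rb1, against 3.35 and 4.52 CPM with vehicle. The lymphocyte and epithelial markers summed to under 1 CPM in every library. The part of these differences in the results below was not tested, and in bulk RNA fewer cells of a type and less RNA per cell cannot be told apart.

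The p53 protein is a transcription factor that is kept low in unstressed cells and accumulates after DNA damage and other stresses. Mdm2 marks p53 for degradation and is itself a p53 target, which closes a negative feedback loop, and the related protein Mdm4 binds p53 and blocks its activity. Since p53 is controlled largely at the protein level, its mRNA and its activity need not move together. Its targets include genes of cell-cycle arrest, cell death, DNA repair and nutrient signalling.

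A p53 binding element is a pair of decamers, each built around a 4-base core, and the stretch around the gene start was read for such letters. RefSeq promoter windows (build GRCm38.p6, 250 bases before to 50 after a start) were available for 7 of the 9 genes, in 11 windows. Zmat3 and Trp53inp1 had no entry. The core pair searched was CNNG with only A or T in the middle, then any 6 bases, then another such CNNG. These cores form the same set when read on the other strand, so 1 reading covers both strands. Of all 32851 windows 2371, or 7.22%, held a core pair. Among the p53 genes, windows of Trp53 and Bbc3 held one, as did a window of Cdkn1a, the classical p53 target set beside them here. The p53 consensus decamer alone was in 8.36% of all windows and in windows of Trp53, Mdm2 and Sesn1. Bbc3, Cdkn1a and Sesn1 also have windows at other starts, and those held neither a core pair nor a decamer. In the Trp53 window, and for 1 of 2 decamers in that of Cdkn1a, the decamer overlaps the core pair. The 3 windows with a core pair are printed because they carry the target letters of p53, and that of Mdm2 because Mdm2 has only the single decamer. Capitals mark the core pair, or the decamer for Mdm2.
Trp53, chr11:69580109-69580408, plus strand: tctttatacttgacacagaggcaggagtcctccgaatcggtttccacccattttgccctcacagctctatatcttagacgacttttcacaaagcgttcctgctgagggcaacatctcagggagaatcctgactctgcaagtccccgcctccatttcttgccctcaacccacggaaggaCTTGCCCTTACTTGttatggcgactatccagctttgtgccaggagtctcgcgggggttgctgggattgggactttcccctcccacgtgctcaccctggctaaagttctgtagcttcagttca
Bbc3, chr7:16309333-16309632, plus strand: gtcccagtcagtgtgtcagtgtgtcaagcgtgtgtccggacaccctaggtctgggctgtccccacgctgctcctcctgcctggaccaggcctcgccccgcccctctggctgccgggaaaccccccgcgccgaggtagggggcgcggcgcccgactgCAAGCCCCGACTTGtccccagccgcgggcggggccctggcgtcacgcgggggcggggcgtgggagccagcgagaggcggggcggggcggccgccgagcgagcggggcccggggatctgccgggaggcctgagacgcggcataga
Cdkn1a, chr17:29090729-29091028, plus strand: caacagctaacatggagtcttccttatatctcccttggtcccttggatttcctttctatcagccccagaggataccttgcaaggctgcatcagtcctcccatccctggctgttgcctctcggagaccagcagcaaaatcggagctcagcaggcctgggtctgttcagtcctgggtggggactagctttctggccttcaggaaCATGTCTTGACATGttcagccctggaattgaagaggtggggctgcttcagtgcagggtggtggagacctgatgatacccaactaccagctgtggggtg
Mdm2, chr10:117710709-117711008, minus strand: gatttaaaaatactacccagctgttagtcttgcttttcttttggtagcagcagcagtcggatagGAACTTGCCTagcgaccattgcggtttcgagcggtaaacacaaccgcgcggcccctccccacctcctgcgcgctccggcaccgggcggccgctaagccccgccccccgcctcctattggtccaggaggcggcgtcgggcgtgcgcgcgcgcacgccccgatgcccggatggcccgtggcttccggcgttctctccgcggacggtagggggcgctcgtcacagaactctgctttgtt
The first base of the match lies 72 bases before the start in Trp53 (CTTGCCCTTACTTG), 94 in Bbc3 (CAAGCCCCGACTTG), 48 in Cdkn1a (CATGTCTTGACATG) and 186 in Mdm2 (GAACTTGCCT). A match describes letters and is not evidence of binding. Elements known outside such windows, like the intronic elements of Mdm2, were not searched.

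The genes of the set did not move together. With Rb1, Zmat3, Mdm4, Sesn1, Bbc3 and Trp53inp1 were higher, by between 1.53-fold and 4.98-fold. Mdm2 and Sesn2 were lower, by 1.24-fold and 1.26-fold. Trp53 itself did not pass the test, and Phlda3 had too few counts to be tested. Of the 8 genes tested, 5 (62.5%) were thus higher and 2 (25.0%) lower at an adjusted p under 0.05 in edgeR's quasi-likelihood test. Among all 13518 genes tested, 35.7% were higher and 36.3% lower, so 72.0% were called in one direction or the other. A call on a single gene is therefore common in these libraries. The median log2 fold change (Rb1 over vehicle) was 0.62 over the 8 genes and -0.01 over all genes tested.

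**Figure D1:**
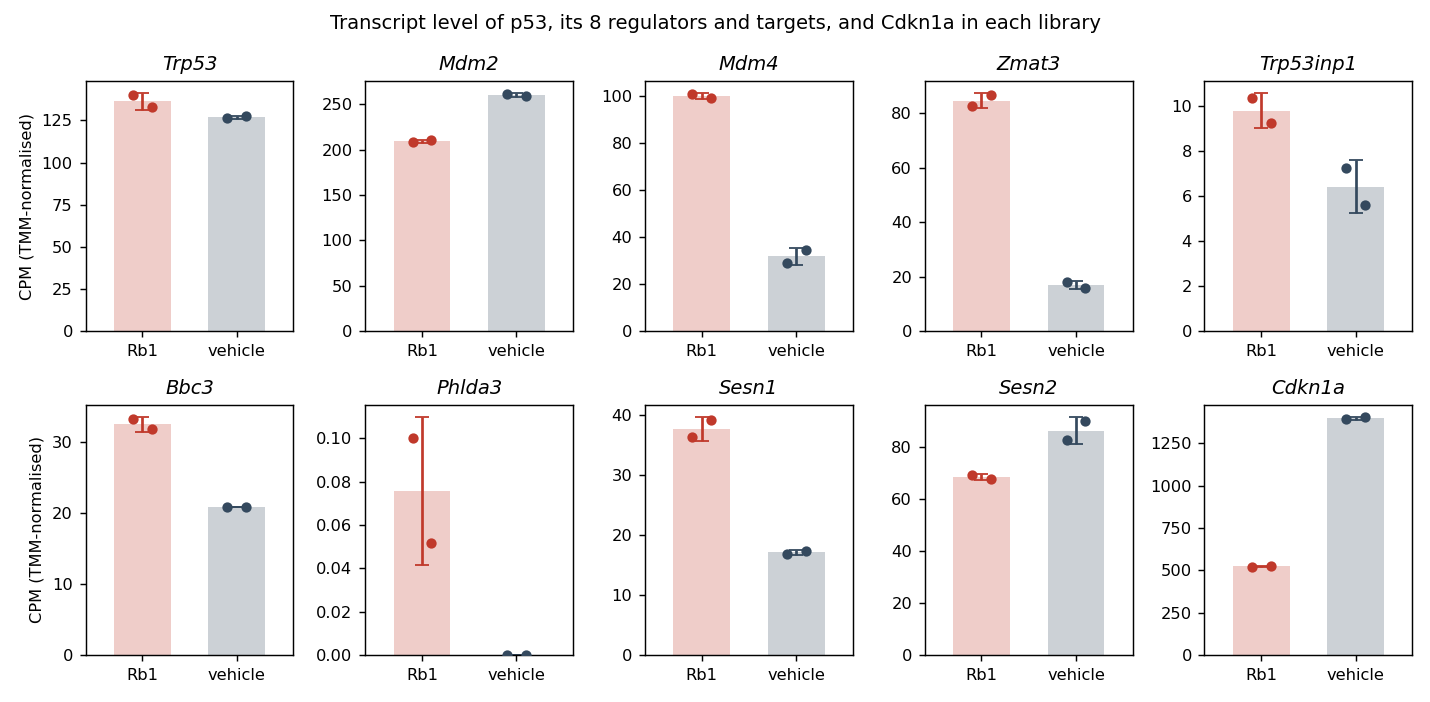
Level of each p53 gene and of Cdkn1a in TMM-normalised CPM, with bars for the mean, error bars for the SD and 1 point per library, each gene on its own axis. The points of Zmat3 lie at 82.7 and 86.6 CPM with Rb1, against 18.1 and 15.9 CPM with vehicle, while those of Trp53 lie close together.

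Trp53, which encodes p53, lies at chr11:69580359-69591873 on the plus strand (GRCm38, ENSMUSG00000059552). Its level after TMM scaling was 139.8 and 132.7 CPM with Rb1, against 126.2 and 127.5 CPM with vehicle. Both Rb1 libraries were above both vehicle libraries, and the gap between the nearest libraries of the groups was smaller than that between the Rb1 libraries. The means were 136.3 ± 5.0 CPM with Rb1 and 126.8 ± 0.957 CPM with vehicle (SD, n = 2 each). The log2 fold change was 0.10 (SE 0.07, edgeR adjusted p = 0.209). Scaling to plain library totals gave 0.35 (adjusted p = 0.00135), and without vehicle replicate 2 the gene passed at 0.11 (adjusted p = 0.0494). A processed pseudogene, Trp53-ps, had 24 and 29 counts with Rb1 and 28 and 25 counts with vehicle, next to 2573 to 2798 counts of Trp53 with Rb1 and 2108 to 2144 with vehicle.

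The inhibitors of p53 moved in opposite directions. Mdm2 (chr10:117688875-117710758, minus strand, ENSMUSG00000020184), the ubiquitin ligase that turns p53 over, had 208.0 and 210.1 CPM with Rb1, against 261.6 and 258.4 CPM with vehicle. The replicates of each group were close together and the groups did not overlap. Mdm2 averaged 209.0 ± 1.49 CPM with Rb1 and 260.0 ± 2.29 CPM with vehicle, a log2 fold change of -0.31 (SE 0.07, edgeR adjusted p = 0.00137). Mdm4 (chr1:132959484-133030561, minus strand, ENSMUSG00000054387), the inhibitor that blocks p53 without degrading it on its own, had 100.9 and 99.2 CPM with Rb1, against 29.1 and 34.4 CPM with vehicle. Each Rb1 library was well above each vehicle library. The means were 100.0 ± 1.19 CPM with Rb1 and 31.8 ± 3.78 CPM with vehicle, and the log2 fold change was 1.65 (SE 0.09, edgeR adjusted p = 3.63e-08), a 3.15-fold higher level. The fall of Mdm2 depended on the scaling: with plain library totals, which move the median of all genes to 0.23, its log2 fold change was -0.07 (adjusted p = 0.454). Without Rb1 replicate 1 its adjusted p was 0.0626.

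A ratio taken within a library does not depend on a factor common to that library. The ratio of Mdm2 to Mdm4 in FPKM (fragments scaled to gene model length and library size) was 6.0 and 6.16 with Rb1, against 26.2 and 21.8 with vehicle. Mdm2 was the more abundant transcript in every library, and its excess was far smaller in both Rb1 libraries. The mean ratio was 6.08 ± 0.116 with Rb1 and 24.0 ± 3.07 with vehicle, a log2 difference of -1.98, or between -2.11 and -1.84 with any 1 library left out. These gene models differ in length, and with the trend of all genes on length removed the log2 difference was -1.30. With 2 libraries a group the exact permutation test (two-sided) gave p = 0.333, the smallest it can give. An opposite-strand pseudogene inside Mdm4, Gm29257, had 6 to 7 counts with Rb1 and 7 to 8 with vehicle, and the pseudogene Mdm4-ps had no count.

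**Figure D2:**
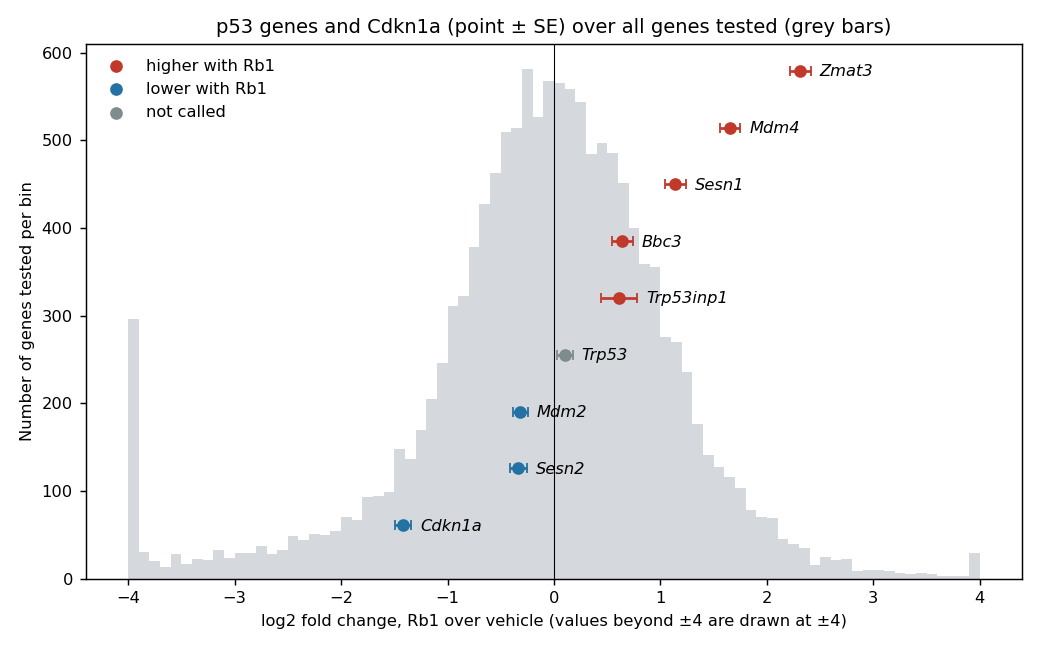
Log2 fold change (Rb1 over vehicle) of each tested p53 gene and of Cdkn1a, as points with SE, over grey bars that show the distribution of all 13518 genes tested. Values beyond 4 in size are drawn at the edge. Zmat3 lies at percentile 98.4 of all genes, Mdm4 at 95, Trp53 at 54.9 and Cdkn1a at 10.7.

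Of the 6 listed targets, Zmat3 had the largest fold change. It encodes a zinc finger protein that binds RNA and is a direct p53 target in mouse cells, and it lies at chr3:32334792-32366014 on the minus strand (ENSMUSG00000027663). It had 82.7 and 86.6 CPM with Rb1, against 18.1 and 15.9 CPM with vehicle. The Rb1 libraries stood far above the vehicle libraries, with little spread within either pair. The means were 84.7 ± 2.77 CPM with Rb1 and 17.0 ± 1.51 CPM with vehicle, a 4.98-fold higher level (log2 fold change 2.31, SE 0.09, edgeR adjusted p = 3.07e-09).

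The targets of cell death gave smaller differences. Bbc3 (chr7:16308393-16318205, plus strand, ENSMUSG00000002083) encodes Puma, a BH3-only protein that neutralises the anti-apoptotic Bcl-2 proteins. It had 33.3 and 31.8 CPM with Rb1, against 20.9 and 20.8 CPM with vehicle. The groups did not overlap, and the vehicle libraries were almost equal. Bbc3 averaged 32.5 ± 1.06 CPM with Rb1 and 20.9 ± 0.0503 CPM with vehicle, with a log2 fold change of 0.64 (SE 0.10, edgeR adjusted p = 9.5e-05). Trp53inp1 (chr4:11156431-11174379, plus strand, ENSMUSG00000028211), a p53-induced protein with roles in autophagy and cell death, was scarcer, with 10.3 and 9.23 CPM with Rb1, against 7.24 and 5.59 CPM with vehicle. Its groups did not overlap, although the vehicle libraries were spread widely. The means were 9.79 ± 0.784 CPM with Rb1 and 6.42 ± 1.17 CPM with vehicle, a log2 fold change of 0.61 (SE 0.17, edgeR adjusted p = 0.00723). Phlda3 (chr1:135766119-135769136, plus strand, ENSMUSG00000041801), a p53 target that restrains Akt at the membrane, had 2 and 1 counts with Rb1 and 0 and 0 counts with vehicle. These counts are at or under the 3 counts that a count of 0 allows (0.15 to 0.18 CPM, counting error only), so Phlda3 was not detectable above that floor at this depth in either group.

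The sestrins also split. Both restrain the growth kinase complex mTORC1 through the GATOR complexes, and Sesn2 is in addition a target of the stress factor ATF4. Sesn1 (chr10:41809935-41908424, plus strand, ENSMUSG00000038332) had 36.2 and 39.1 CPM with Rb1, against 16.8 and 17.4 CPM with vehicle. Both Rb1 libraries were above both vehicle libraries by far more than the spread of either pair. The means were 37.7 ± 2.03 CPM with Rb1 and 17.1 ± 0.388 CPM with vehicle, a log2 fold change of 1.14 (SE 0.10, edgeR adjusted p = 1.16e-06). Sesn2 (chr4:132492032-132510501, minus strand, ENSMUSG00000028893) had 69.3 and 67.5 CPM with Rb1, against 82.5 and 90.1 CPM with vehicle. It was lower in both Rb1 libraries, and the vehicle libraries were the more variable pair. Sesn2 averaged 68.4 ± 1.22 CPM with Rb1 and 86.3 ± 5.36 CPM with vehicle, a log2 fold change of -0.34 (SE 0.08, edgeR adjusted p = 0.0029). Like that of Mdm2, this call ended with plain library totals (-0.09, adjusted p = 0.416), and it also ended without Rb1 replicate 2 (adjusted p = 0.0629). Gm12981, listed on the same strand within Sesn2, had 18 and 5 counts with Rb1 and 3 and 0 counts with vehicle, too few to shift the Sesn2 counts of 1309 to 1515. The third sestrin gene, Sesn3, had 20 and 15 counts with Rb1 and 34 and 20 counts with vehicle and did not pass (adjusted p = 0.0741).

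The ratio of Sesn1 to Sesn2 in FPKM was 0.456 and 0.505 with Rb1, against 0.178 and 0.168 with vehicle. Sesn2 was the more abundant of the pair in each library. The mean ratio was 0.481 ± 0.0345 with Rb1 and 0.173 ± 0.00681 with vehicle, a log2 difference of 1.47 (exact permutation p = 0.333, the smallest possible), and it lay between 1.40 and 1.55 with any 1 library left out.

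Levels of different genes were ordered per length, in FPKM. Mdm2 was highest, at 40.9 and 41.3 FPKM with Rb1 and 50.8 and 50.6 FPKM with vehicle. Trp53 followed, at 34.5 and 32.8 FPKM with Rb1 and 30.8 and 31.4 FPKM with vehicle. Below it came Sesn2, Bbc3 and Sesn1 in this order in all 4 libraries. The next places changed hands: Zmat3 had 7.23 and 7.56 FPKM with Rb1 and Mdm4 6.81 and 6.69 FPKM, whereas with vehicle Zmat3 had 1.56 and 1.39 FPKM and Mdm4 1.94 and 2.32 FPKM. These neighbours lay close together within each group. Trp53inp1 had 1.6 and 1.42 FPKM with Rb1 and 1.10 and 0.859 FPKM with vehicle, and Phlda3 was last.

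The length of the gene model moved with the fold change across all genes, and the p53 genes differ in length. Among the 1061 tested genes of at least 10 kb, where Mdm4 (14798 bases) and Zmat3 (11435 bases) belong, 73.0% were higher with Rb1 and the median log2 fold change was 0.75. Among the 4012 genes of 2 to 4 kb, where Bbc3, Sesn1 and Sesn2 belong, 25.5% were higher and the median was -0.21. Within its own length class Zmat3 lay at percentile 98.1 of log2 fold changes, Mdm4 at 89.8, Sesn1 at 92.3, Bbc3 at 83.4 and Trp53inp1 at 60.2. Mdm2 lay at 29.6 and Sesn2 at 43.4. After a smooth length trend was removed from all genes, the log2 fold change was 0.83 for Mdm4, 1.65 for Zmat3, 0.99 for Bbc3, 1.15 for Sesn1, -0.46 for Mdm2 and -0.24 for Sesn2, and all 6 kept their calls. Trp53inp1 had 0.29 after this step and no longer passed (adjusted p = 0.145). The source of the length trend was not tested.

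**Figure D3:**
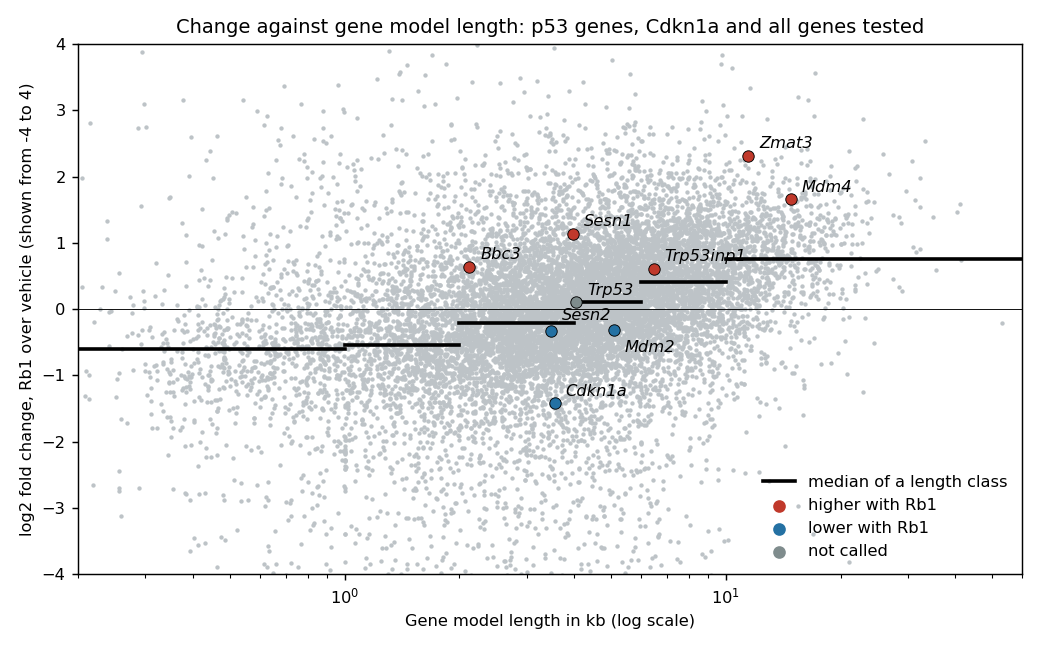
Log2 fold change (Rb1 over vehicle) against gene model length in kb (log axis) for all genes tested, with the p53 genes and Cdkn1a marked and a line for the median of each length class. The median of all genes is -0.60 under 1 kb and 0.75 at 10 kb and over, and Zmat3 and Mdm4 are the longest of the marked genes.

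Cdkn1a, the p21 inhibitor of cyclin-dependent kinases and the best known arrest target of p53, is not one of the 9 genes and was set beside them. It lies at chr17:29090976-29100727 on the plus strand (ENSMUSG00000023067). It had 519.9 and 526.5 CPM with Rb1, against 1392 and 1404 CPM with vehicle, and the groups were far apart. The log2 fold change was -1.42 (SE 0.08, edgeR adjusted p = 3.13e-08), a 2.67-fold lower level, opposite in direction to Zmat3, Bbc3 and Sesn1.

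Of 61 other p53 targets listed, 54 could be tested. With Rb1, 19 of them (35.2%) were higher and 23 (42.6%) lower, with a median log2 fold change of -0.08, against 35.7% higher, 36.3% lower and a median of -0.01 for all genes tested. Of 8 tested arrest targets, 6 were lower and 1 higher, with a median of -1.05. Gadd45a, a stress sensor of growth arrest, averaged 12.8 ± 0.397 CPM with Rb1 and 68.5 ± 5.75 CPM with vehicle (log2 fold change -2.42, edgeR adjusted p = 3.39e-09). The kinase gene Plk2 averaged 30.4 ± 2.87 CPM with Rb1 and 88.0 ± 3.87 CPM with vehicle. Ccng1, a cyclin G gene, was the one that was higher, with a log2 fold change of 0.37.

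Of 10 tested targets of cell death, 2 were higher, 4 were lower and the median was -0.08. Over all genes tested, 35.7% were higher, 36.3% were lower and the median was -0.01. The share of death targets called lower was thus near that of all genes, and the share called higher was smaller. Apaf1, the scaffold of the apoptosome, averaged 38.9 ± 2.56 CPM with Rb1 and 20.2 ± 1.56 CPM with vehicle. Pidd1, which activates caspase-2, was the other one higher, at 21.3 ± 0.122 CPM with Rb1 and 9.12 ± 3.84 CPM with vehicle. The pore-forming Bax averaged 56.6 ± 3.83 CPM with Rb1 and 82.8 ± 6.36 CPM with vehicle (log2 fold change -0.55, edgeR adjusted p = 0.000164), and this call ended when the length trend was removed (-0.08, adjusted p = 0.348). With that step 6 death targets were higher, and without Rb1 replicate 1 or with plain library totals 2 were lower. Pmaip1, the BH3-only Noxa gene, had a mean of 80.5 CPM with Rb1 and 74.1 CPM with vehicle and did not pass (adjusted p = 0.181).

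Of 9 DNA repair targets, all tested, 7 (77.8%) were higher with Rb1, 0 were lower and 2 did not pass, and the median was 0.77. Over all genes tested 35.7% were higher. With the length trend removed, 5 of the 9 were higher and 0 lower. Polh, a polymerase that copies past DNA lesions, averaged 105.0 ± 5.45 CPM with Rb1 and 36.6 ± 0.162 CPM with vehicle. Rrm2b, the p53-inducible ribonucleotide reductase subunit, had a log2 fold change of 1.11. Among 13 tested targets of metabolism and autophagy, 7 (53.8%) were higher and 4 (30.8%) lower, against 35.7% and 36.3% of all genes tested. The autophagy kinase gene Ulk1 was higher, at 25.7 ± 0.974 CPM with Rb1 and 11.8 ± 1.85 CPM with vehicle. Ddit4, an inhibitor of mTORC1, was lower, at 81.1 ± 3.34 CPM with Rb1 and 246.9 ± 3.97 CPM with vehicle.

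Of 14 other tested targets, 2 (14.3%) were higher and 9 (64.3%) lower, against 35.7% and 36.3% of all genes tested. The phosphatase gene Ptpn14 averaged 0.841 ± 0.342 CPM with Rb1 and 74.4 ± 3.89 CPM with vehicle, an 88.1-fold lower level, although it is a long gene model of 13413 bases. Its log2 fold change was -6.46, against -7.22 with the length trend removed, -5.11 on log2(FPKM + 0.1) and -2.61 on log2(FPKM + 1). Ckap2, a mitotic spindle gene, was one of the higher ones, with a log2 fold change of 1.6.

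**Figure D4:**
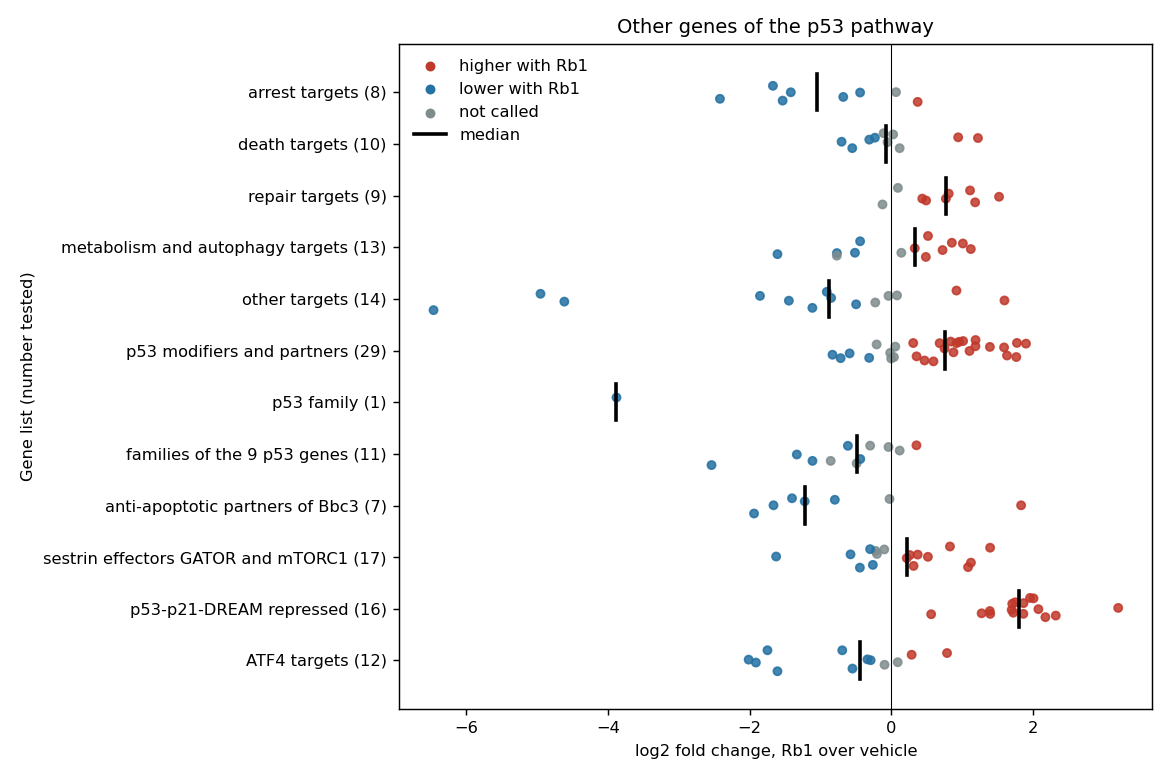
Log2 fold change (Rb1 over vehicle) of each tested gene of the p53 pathway lists, 1 point per gene, with a black line for each list's median and the number tested beside its name. The median is 0.77 for repair targets and -1.05 for arrest targets, against -0.01 for all genes tested.

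Among 29 tested modifiers and partners of p53, 20 (69.0%) were higher with Rb1 and 4 (13.8%) lower, with a median of 0.75. This list shares Ppm1d with the other p53 targets above. The shares over all genes tested were 35.7% and 36.3%. With the length trend removed, 17 of the 29 were higher and 5 lower. The damage kinases were among the higher ones. Atm averaged 86.2 ± 1.26 CPM with Rb1 and 25.2 ± 5.25 CPM with vehicle, and Atr 58.9 ± 0.716 CPM with Rb1 and 19.0 ± 1.27 CPM with vehicle. Chek1, the kinase downstream of Atr, had a log2 fold change of 1.76. Several of these genes are long: Atr has 23629 bases and Prkdc 13187 bases. Among all tested genes of at least 10 kb, 73.0% were higher and the median was likewise 0.75. With the length trend removed, the log2 fold change was 0.52 for Atr, against 1.63 before, 1.18 for Atm, against 1.77, and 1.15 for Prkdc, against 1.90, and these 3 kept their calls. On log2(FPKM + 1), which understates low genes, Atr had 0.96 and Prkdc 1.23. Cdkn2a, which encodes the Mdm2 antagonist Arf, had no count in any of the 4 libraries, which allows up to 3 counts in each. Of the relatives of p53, Trp63 had no count either. Trp73 had 1 and 2 counts with Rb1 and 13 and 28 counts with vehicle, so that its level with vehicle was 16.1 times that with Rb1 (exact 95% interval 5.12 to 81.1, counting error only). Its fitted log2 fold change, which depends on the prior count at such depth, was -3.89, and -3.24 without vehicle replicate 2.

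The partners of the set were described from further lists. Of 7 anti-apoptotic genes whose products Puma can bind, 5 (71.4%) were lower and 1 (14.3%) higher, against 36.3% and 35.7% of all genes tested. Bcl2l1 averaged 25.7 ± 0.687 CPM with Rb1 and 81.2 ± 0.234 CPM with vehicle, while Bcl2 averaged 26.3 ± 0.342 CPM with Rb1 and 7.37 ± 0.159 CPM with vehicle (log2 fold change 1.83, and 1.10 on log2(FPKM + 1)). Bcl2a1a, Bcl2a1b and Bcl2a1d, which are among the 7, are near-identical copies that can share reads. Their separate values are uncertain, and the count of lower genes treats them as separate. Of 17 genes of the GATOR and mTORC1 machinery through which sestrins act, 9 (52.9%) were higher and 5 (29.4%) lower. The shares over all genes tested were 35.7% and 36.3%. With plain library totals 9 of the 17 were higher and 2 lower, and with the length trend removed 6 were higher and 5 lower. Mtor, with a gene model of 10109 bases, averaged 103.0 ± 1.14 CPM with Rb1 and 48.6 ± 3.54 CPM with vehicle. Rraga, a small GTPase that recruits mTORC1, has 1618 bases. It averaged 139.5 ± 2.61 CPM with Rb1 and 430.2 ± 12.7 CPM with vehicle. Among all tested genes, 73.0% of those of at least 10 kb were higher with Rb1, against 13.9% of those of 1 to 2 kb. The list of ATF4 targets also held Atf4 itself, and it shared Sesn2 and Ddit4 with the p53 targets above. Of its 12 tested genes, 8 (66.7%) were lower and 2 (16.7%) higher, the higher ones numbering 0 with the length trend removed. Atf3 averaged 77.8 ± 1.62 CPM with Rb1 and 292.4 ± 15.2 CPM with vehicle, and Ddit3 101.1 ± 9.17 CPM with Rb1 and 339.3 ± 41.0 CPM with vehicle. Of 11 tested relatives of the target genes by family, 1 was higher and 5 were lower, among them Bik, another BH3-only gene (log2 fold change -2.54).

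Genes that p53 represses through p21 and the DREAM complex, which shuts off cell-cycle genes, were called in 1 direction. All 16 were tested and all 16 were higher with Rb1, against 35.7% of all genes tested. Their median log2 fold change was 1.81, against -0.01 for all genes tested. The spindle checkpoint kinase gene Bub1b averaged 247.1 ± 4.58 CPM with Rb1 and 67.7 ± 1.22 CPM with vehicle. Aurkb, a mitotic kinase gene, averaged 115.5 ± 0.193 CPM with Rb1 and 23.1 ± 2.77 CPM with vehicle. These genes are also those of dividing cells, and their share in each culture was not measured.

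Patterns over the 4 libraries were compared among tested genes, with pseudogenes and unnamed gene models left out. Closest to Trp53 were Midn, Ythdf1 and Sqle, at Euclidean distances of 0.0075, 0.0181 and 0.0183 on centred log2 CPM. Closest to Mdm2 were Nek6, Got1 and Sgpl1, at 0.0034, 0.0143 and 0.0174. A distance under 0.1 was shared by 289 of the genes compared for Trp53 and 254 for Mdm2, so such likeness over 4 libraries is common. Wrap53, which neighbours Trp53 on the genome, averaged 11.3 CPM with Rb1 and 11.4 CPM with vehicle and did not pass (adjusted p = 0.933).

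**Figure D5:**
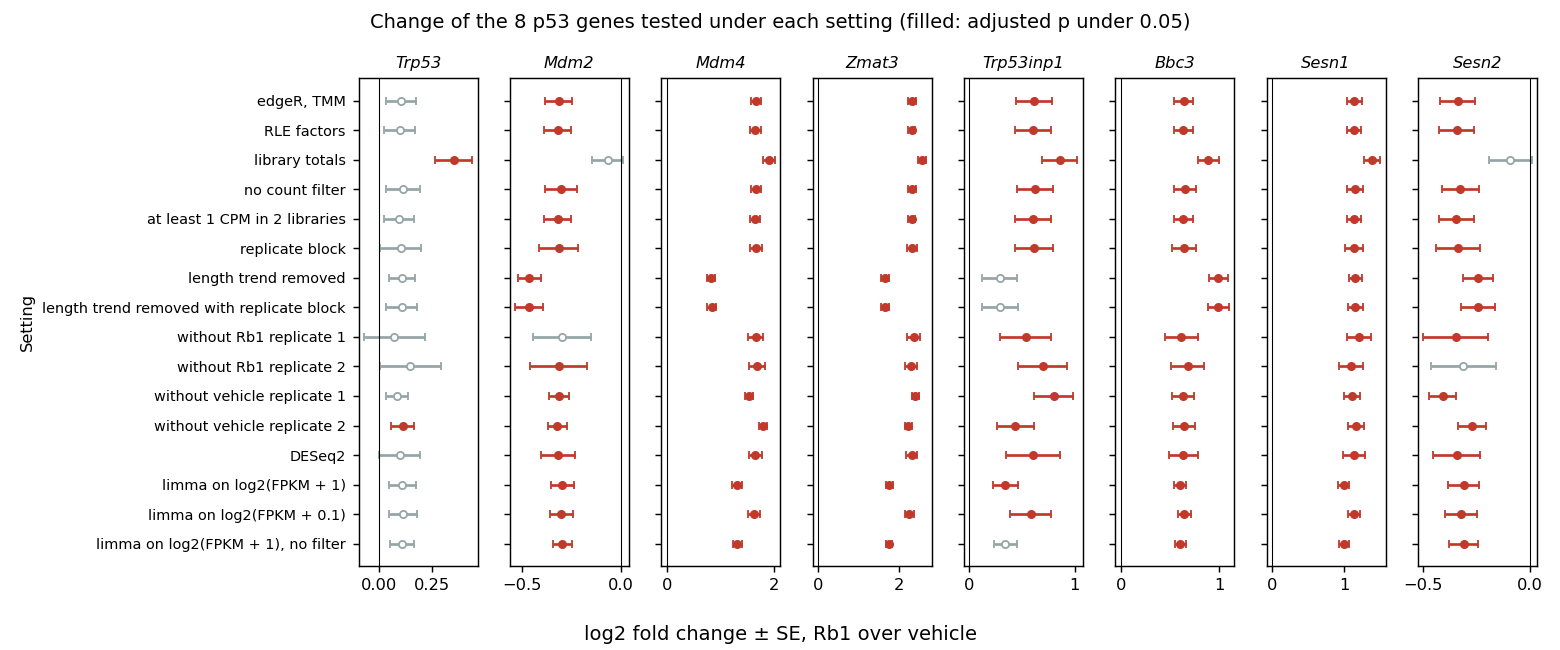
Log2 fold change (Rb1 over vehicle) of the 8 tested p53 genes with edgeR and TMM and under 15 alternatives, as points with SE, filled at an adjusted p under 0.05. Zmat3 stays between 1.65 and 2.56 and Mdm4 between 0.83 and 1.90, while Mdm2 and Sesn2 lie closest to 0 with plain library totals.

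Across those 15 alternatives, Zmat3, Mdm4, Bbc3 and Sesn1 were called higher in all 15. Bbc3 ranged between 0.60 and 0.99 and Sesn1 between 0.99 and 1.39. Trp53inp1 was called in 12, and Mdm2 and Sesn2 in 13 each. Trp53 was called in 2, with log2 fold changes between 0.07 and 0.35.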

How the data were processed

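Per the labels' protocols, DC2.4 total RNA was sequenced in pairs on an Illumina instrument. The library kit, strand use, aligner, counter and annotation were not given in the sources used here. Raw counts per gene and FPKM values for the same genes were deposited by the authors. The deposited FPKM values equal counts per kb of the listed gene length divided by a library constant of 1.09 times the count total with Rb1 and 0.908 and 0.943 times with vehicle. The submitters' processing notes name GRCm39 and mm39, but 98.33% of the deposited gene coordinates found in GENCODE M21 are identical to GRCm38, including those of all 9 genes, and coordinates are given as GRCm38. Gene model lengths (bases) are the deposited ones.

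Groups came from the labels' treatment entry. Counts were tested with edgeR 4.0.16 (R 4.3.3; quasi-likelihood, TMM, filterByExpr, robust, group as only term, two-sided, 2 residual degrees of freedom) over 13518 genes with Benjamini-Hochberg adjustment at 0.05. SE is the log2 fold change over the square root of F. CPM are TMM-normalised. Chi-square per degree of freedom between replicates was 2.87 with Rb1 and 11.8 with vehicle, so no pair agreed within sampling noise. In simulated counts (13180 genes), 69 of 95 genes changed 1.5-fold, 84 of 95 changed 2-fold and 10 of 12990 unchanged genes were called. Few genes were changed there, equally up and down, whereas 72.0% of genes were called here. The simulated shares therefore do not give the error rate of this comparison. Named genes were the 9, Cdkn1a, up to 4 called genes of each list with the smallest p, genes overlapping one of the 9 on the genome, and the 3 nearest patterns to Trp53 and to Mdm2. Ccng1, Pmaip1, Sesn3, Wrap53 and the marker, pseudogene and zero-count genes were named outside this rule, with their values seen. Some genes that the rule names are not reported here. The genes and lists were chosen with earlier results of these data known. Alternatives used relative log expression factors, library totals, other filters, a replicate block, removal of a loess length trend (span 0.3), each library left out, DESeq2 1.42.0 and limma 3.58.1 on log2(FPKM + 1) or log2(FPKM + 0.1). Intervals and floors cover only counting error, because without molecular identifiers a read need not be an independent molecule.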

Additional observations from a re-analysis of the deposited data

How the results depend on the processing

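Of 867 log2 fold changes of the named genes under 15 alternatives, 838 kept their direction and their side of the threshold, 19 lost a call, 8 gained one and 2 changed sign, both of Sqle, which was called in neither fit (0.11, against -0.10 with the length trend removed, with and without the block). Of the p53 genes, 5 were higher and 2 lower, and with plain library totals 6 were higher and 0 lower. With the length trend removed, 4 were higher and 2 lower, with and without the block. Limma without a filter gave the same 4 and 2. With each library left out in turn, 5 to 6 were higher and 1 to 2 lower. The labels give the replicate number in a batch entry and state no other pairing, and deviations of same-numbered libraries correlated at -0.05, so no pairing was assumed. The number as a replicate block gave 5 higher and 2 lower, 4799 and 4854 over all genes, and it changed no call of a named gene. The log2 difference of the Mdm2 to Mdm4 ratio was -1.98, and -1.30 with the length trend removed (for this ratio the alternative was chosen after seeing the data). Over all genes the calls ranged between 4196 and 5087 higher and between 4239 and 5160 lower with a library left out. With plain library totals, 62.6% of all calls were higher, against 49.6% with TMM. Counts of some lists moved by over 1.5 times. Arrest targets had 2 higher in place of 1 with library totals or the length trend removed. Death targets had 2 higher, but 4 with library totals, 6 with the length trend removed and 5 with the block added, and 4 lower, but 2 with library totals, without Rb1 replicate 1 or with limma without a filter. The sestrin machinery had 5 lower, but 2 with library totals, without Rb1 replicate 1, with DESeq2 or with limma without a filter, and 3 without Rb1 replicate 2. ATF4 targets had 2 higher, but 0 with the length trend removed and 1 with either Rb1 library left out. The family of p53 had 1 lower, but 0 with the 1 CPM filter or limma. Family relatives of the targets had 1 higher, but 2 with library totals. The cause was not tested in any of these. With 2 libraries a group, a single ratio cannot pass an exact permutation test, and the depth limits Phlda3.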
